A study of Homo sapiens with 6 samples.

Results

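The genes described here encode the protein subunits of the mitochondrial respiratory chain and of ATP synthase. They were chosen by symbol: every gene whose symbol begins with NDUFA, NDUFB, NDUFC, NDUFS, NDUFV, UQCR, COX4 to COX8 or ATP5, together with SDHA, SDHB, SDHC, SDHD and CYC1, was taken if it lay on a probe set that the annotation gives to a single gene. Where a gene had several such probe sets, the brightest on average stood for it. This gave 90 genes of 18417 measured. The rule reads symbols and brightness, and it was set with earlier results of these data known.

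The respiratory chain sits in the inner mitochondrial membrane and passes electrons from NADH (complex I) and succinate (complex II) through ubiquinone to complex III, and from there through cytochrome c to complex IV, which reduces oxygen to water. Complexes I, III and IV pump protons, and ATP synthase (complex V) uses the return of these protons to make ATP. Most subunits are encoded in the nucleus, and some of the catalytic core comes from mitochondrial DNA. Many cancer cells in culture rely heavily on glycolysis but still use the chain, among other things to regenerate NAD+ and to make pyrimidines. STEAP1, the silenced gene, encodes a multi-pass protein of the plasma membrane and of vesicles, from a family of metalloreductases.

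RNA came from A673 and SK-N-MC, established cell lines grown from human Ewing tumors, which carry a fusion of EWSR1 and FLI1. In each line cells received siRNA 2 against STEAP1, siRNA 3 against STEAP1 or a control siRNA meant to silence no gene, at 5 nM for 48 h per the labels. Each of these treatments in each line was measured on 1 Affymetrix Gene ST array, which makes 4 siSTEAP1 arrays and 2 control arrays, or 6 in all. The labels do not say whether arrays of a line came from separate cultures, so the spread behind every p-value is that between arrays and may be technical, and so few arrays limit the precision. Each line had 1 control array, so no spread between controls of a line could be estimated. All levels below are log2 of the deposited array intensity, all differences are differences of such log2 values, and each difference is given with its standard error (SE) from limma. A gene is called changed where limma's p, adjusted by Benjamini and Hochberg over all 18417 genes, is under 0.05. Levels of different probe sets are not compared with each other, since each probe set has its own brightness.

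STEAP1 itself lay at 4.53 with siRNA 2, 4.59 with siRNA 3 and 6.23 with control siRNA in A673, and at 4.17 with siRNA 2, 4.73 with siRNA 3 and 7.15 with control siRNA in SK-N-MC. Both siRNAs were thus below the control array in each line, although STEAP1 was not called across the lines (adjusted p 0.293 by limma). Of 10 Ewing tumor markers, 9 were measured and 8, STEAP1 among them, averaged a log2 level of 4 or more. The exception was FLI1, at 3.78 to 4.04 over the arrays. Of 12 markers of blood, epithelium, endothelium and muscle, 11 were measured and 10 lay under the median of all genes in each of the 6 arrays, with DES as the exception.

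The 90 genes are 34 complex I subunits, 3 of complex II, 8 of complex III, 10 of complex IV, 16 of ATP synthase, and 19 genes around them. These 19 are the complex I assembly factors NDUFAF1 to NDUFAF7, the complex IV forms COX4I2, COX6A2, COX6B2, COX7A1, COX7B2 and COX8C, which are known from particular tissues, the ATP synthase inhibitor ATP5IF1, COX7A2L, which joins complexes III and IV into a supercomplex, and 4 further symbols that the rule takes (the pseudogenes ATP5F1EP2 and UQCRBP1, the noncoding transcript NDUFV1-DT, and ATP5MGL, a close relative of ATP5MG). NDUFC2, NDUFS5, SDHB, UQCRFS1 and ATP5F1E are not analysed here, and neither are the 13 subunits encoded in mitochondrial DNA. Of the 90 genes, 74 averaged a log2 level of 4 or more over the arrays. The other 16, among them all 6 tissue forms of complex IV, were dimmer, and their differences rest on weak signal. The labels and files give no detection call. Several subunits have near-identical processed pseudogenes whose RNA the probes could read, which was not tested.

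The first comparison asks whether transcripts of the chain differed after silencing of STEAP1 in both lines. Across the lines the 90 genes stood close to their controls: 44 differences were above 0 and 46 below, with a median of -0.01, and they ran from -0.27 for ATP5F1EP2 to 0.30 for COX7A2L. The median over all genes was also close to 0, at -0.01. Limma called 0 of the 90 genes in either direction, and 0% of all genes were called. At an unadjusted p under 0.05 stood 1 of the 90 genes, or 1.11%, while 4.63% of all genes did.

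How large a difference the arrays leave room for can be read from the intervals of the fit. For 86 of the 90 genes the 95% interval of the difference lay wholly within a 1.5-fold difference in either direction, a share of 95.6% beside 85.6% over all genes, and for all 90 it lay within 2-fold. The 4 genes with an interval reaching past 1.5-fold were the complex I subunits NDUFB1, NDUFB6 and NDUFS4, and SDHD of complex II. These intervals are per gene and not adjusted for their number. A p above the threshold does not show that a gene stayed the same.

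**Figure D1:**
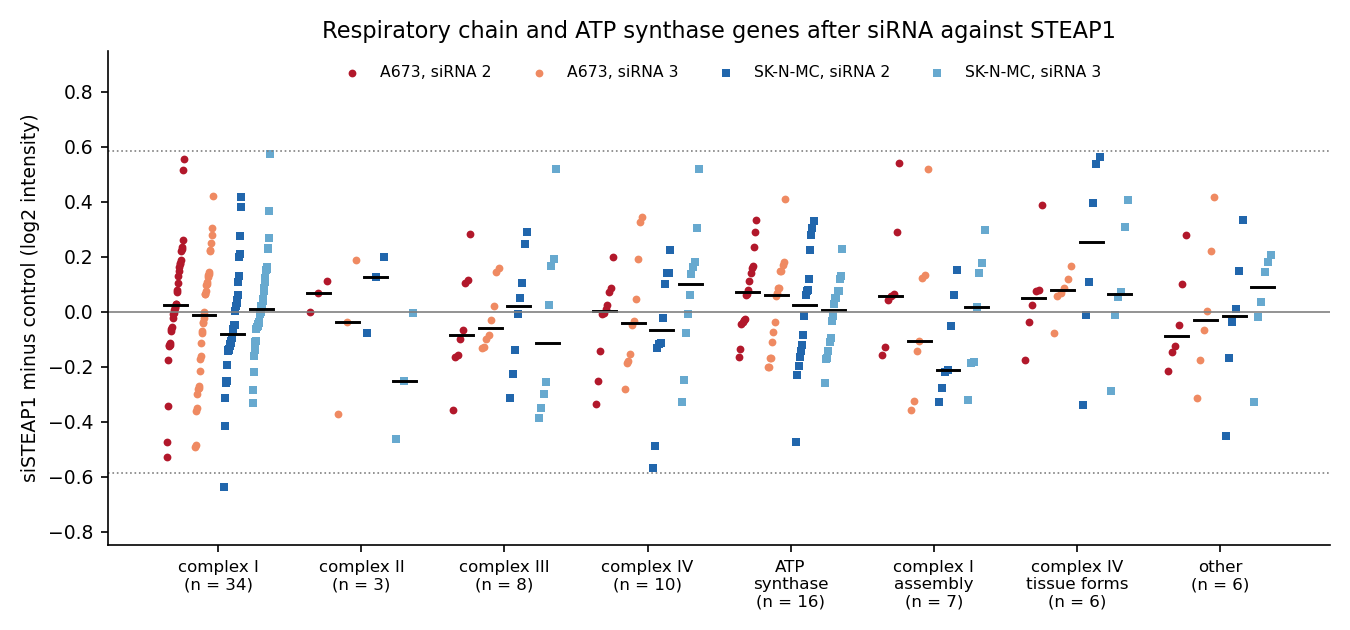
Log2 intensity of each gene in a siSTEAP1 array minus the control array of the same line, by complex. Each point is 1 gene, red circles are A673 and blue squares SK-N-MC, short black bars are medians, and dotted lines mark a 1.5-fold difference. The points scatter around 0 in all 4 arrays, and 1 point lies past 1.5-fold. "Other" holds ATP5IF1, COX7A2L, ATP5F1EP2, UQCRBP1, NDUFV1-DT and ATP5MGL.

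The same picture held array by array, as the plot of differences by array shows. The median of the 90 differences from control was 0.03 with siRNA 2 and -0.01 with siRNA 3 in A673, and -0.05 with siRNA 2 and 0.02 with siRNA 3 in SK-N-MC. A difference past 1.5-fold appeared in 1 gene, the complex I subunit NDUFA11 with siRNA 2 in SK-N-MC, at -0.64. Among all genes averaging a log2 level of 4 or more, the share past 1.5-fold was 1.98% and 2.01% with siRNA 2 and siRNA 3 in A673, and 6.83% and 4.01% in SK-N-MC. All 4 siSTEAP1 arrays lay above their controls for 11 of the 90 genes and below them for 7. Over all 18417 genes these counts were 1952 and 2065.

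Genes are named here by the smallest of their 4 differences, where all 4 had 1 sign, and none of them was called. COX7A2L lay at 6.32 with siRNA 2, 6.45 with siRNA 3 and 6.04 with control siRNA in A673, and at 6.54 with siRNA 2, 6.39 with siRNA 3 and 6.21 with control siRNA in SK-N-MC. All 4 siSTEAP1 arrays were above the control of their line, by 0.28 with siRNA 2 and 0.42 with siRNA 3 in A673 and by 0.33 with siRNA 2 and 0.18 with siRNA 3 in SK-N-MC. The difference across lines was 0.30 (SE 0.12), with an unadjusted p of 0.0299 and an adjusted p of 0.989 from limma. Next on the higher side came NDUFAF2, a complex I assembly factor (0.18, SE 0.11), and ATP5MC1, a gene of the ATP synthase c ring (0.19, SE 0.11). The value of NDUFAF2 depended on the probe set: with both of its probe sets averaged it was -0.02. On the lower side stood the complex I subunit NDUFB10 (-0.19, SE 0.12), ATP5MF, subunit f of ATP synthase (-0.24, SE 0.13), and the assembly factor NDUFAF1 (-0.19, SE 0.11). All 6 had an adjusted p of 0.989.

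By complex, the medians across lines were 0.01 for the 34 complex I subunits, -0.06 for complex II, -0.04 for complex III, 0.03 for complex IV and less than 0.01 in size for ATP synthase. Subunits often used to follow the complexes differed by at most 0.25 in size, and none was called. NDUFS1, which holds iron-sulfur clusters of complex I, differed by 0.05, the NADH-binding NDUFV1 by 0.22 and NDUFB8 by 0.16. SDHA, the flavoprotein of complex II, differed by 0.10, and SDHC, a membrane anchor, by -0.06. In complex IV, COX4I1 differed by 0.08 and COX5A by -0.21. The ATP synthase subunits ATP5F1A and ATP5F1B differed by 0.25 and -0.01, and the inhibitor ATP5IF1 by -0.03. That of ATP5F1A was the highest value among the 71 structural subunits. The SE of these 10 values lay between 0.11 and 0.14.

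Within A673 the question was the same for 1 line, with the spread taken from both lines. Limma called 0 of the 90 genes, beside 0% of all genes, and 1 of the 90 had an unadjusted p under 0.05, beside 3.35% of all genes. That gene was NDUFAF5, an assembly factor that modifies NDUFS7. It lay at 3.24 with siRNA 2, 3.22 with siRNA 3 and 2.70 with control siRNA. Both siSTEAP1 arrays were above the control (difference 0.53, SE 0.16, adjusted p 0.9995 by limma), at a low level in all arrays. The complex I subunits NDUFS4 (0.43, SE 0.21) and NDUFB6 (0.40, SE 0.25) followed. NDUFB1 (-0.44, SE 0.23), the core subunit NDUFV2 (-0.39, SE 0.17) and COX6C of complex IV (-0.22, SE 0.17) lay below the control in both siSTEAP1 arrays.

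Within SK-N-MC limma again called 0 of the 90 genes, beside 0.00543% of all genes, which is 1 gene. At an unadjusted p under 0.05 stood 4 of the 90 genes, or 4.44%, beside 5.12% of all genes. NDUFB2, a small subunit of the membrane arm of complex I, lay at 6.35 with siRNA 2, 6.51 with siRNA 3 and 5.93 with control siRNA. Both siSTEAP1 arrays were above the control (difference 0.50, SE 0.19, adjusted p 0.936 by limma). The tissue forms COX6B2, known from testis (0.40, SE 0.16), and COX4I2, known from lung and induced by low oxygen (0.42, SE 0.18), were above the control at levels under 2.5 in every array. COX5A, a nuclear subunit of complex IV, lay at 7.53 with siRNA 2, 7.69 with siRNA 3 and 8.02 with control siRNA, and both siSTEAP1 arrays were below the control (-0.41, SE 0.17). The pseudogene ATP5F1EP2 (-0.39, SE 0.17) and the complex I subunit NDUFB5 (-0.37, SE 0.23) were also below it.

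Whether the lines answered silencing differently was tested by the difference of the responses, A673 minus SK-N-MC. Limma called 0 of the 90 genes, beside 0% of all genes, and 1 of the 90 had an unadjusted p under 0.05, beside 3.86% of all genes. The arrays leave more room here: for 8 of the 90 genes the 95% interval lay within 1.5-fold, and for 72 within 2-fold. NDUFAF5, which lay above its control in A673, was at 2.72 with siRNA 2, 2.59 with siRNA 3 and 2.78 with control siRNA in SK-N-MC, where both siSTEAP1 arrays were below the control. It had the largest positive value (0.65, SE 0.23, adjusted p 0.9998 by limma), followed among the named genes by NDUFA11 (0.52) and the dim COX8C (0.43). NDUFB3 (-0.50), NDUFV2 (-0.49) and COX6B2 (-0.43) stood on the negative side, each with an SE between 0.23 and 0.34.

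Both siRNAs carry the same numbers in both lines, so siRNA 2 could be set against siRNA 3 with no control array in the difference itself. The control arrays still entered the fit, and with it the SE and p. Limma called 0 of the 90 genes, beside 0% of all genes, and 5 of the 90 had an unadjusted p under 0.05, or 5.56%, beside 6.67% of all genes. These 5 genes were SDHD, UQCRC2, ATP5PO, COX7B and NDUFA3. SDHD, a membrane anchor of complex II, lay at 8.46 with siRNA 2 and 8.09 with siRNA 3 in A673, and at 7.23 with siRNA 2 and 6.57 with siRNA 3 in SK-N-MC. It was thus higher with siRNA 2 in both lines (0.52, SE 0.14, adjusted p 0.586 by limma). COX7B, a nuclear subunit of complex IV, lay at 4.79 with siRNA 2 and 5.47 with siRNA 3 in A673, and at 5.71 with siRNA 2 and 6.13 with siRNA 3 in SK-N-MC. It was lower with siRNA 2 in both lines (-0.55, SE 0.14, adjusted p 0.586 by limma). UQCRC2, a core protein of complex III (0.38, SE 0.14), and ATP5PO, which is part of the ATP synthase stalk (0.36, SE 0.14), were higher with siRNA 2. NDUFA3 (-0.35, SE 0.14) and NDUFB1 (-0.33, SE 0.17) were lower with it.

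The last comparison sets A673 against SK-N-MC, with the silencing state as a term in the fit. Here 28 of the 90 genes were called: 9 were higher in A673 and 19 lower. Over all genes 13.5% were called higher and 11.4% lower, so that the lines differed widely. Among genes averaging a log2 level of 4 or more these shares were 22.5% and 16.4%, and of the 74 brighter members 8, or 10.8%, were higher and 18, or 24.3%, lower. The median difference of the 90 genes was -0.18, beside -0.02 over all genes. In all, 68 of the 90 genes lay lower in A673 and 22 higher. The 3 arrays of A673 lay wholly above the 3 of SK-N-MC for 16 of the 90 genes and wholly below for 42. Over all genes these shares were 19.4% and 18.5%. After a second quantile normalization the calls split into 8 higher and 34 lower, while those over all genes moved to 2326 higher and 2401 lower, beside 2479 and 2096 without it.

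**Figure D2:**
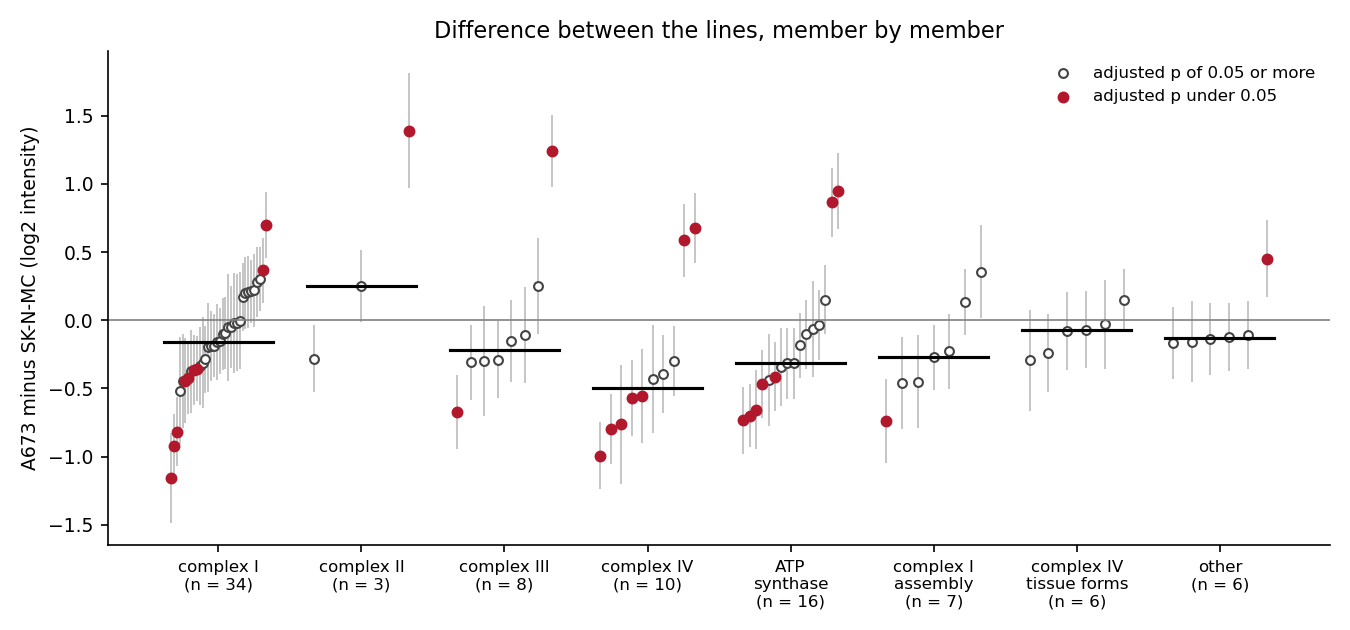
Difference between A673 and SK-N-MC in log2 intensity for each of the 90 genes, by complex. Points are genes, filled red where limma's adjusted p was under 0.05, grey lines are 95% intervals and black bars are medians. In complex IV and ATP synthase most points lie below 0, with 2 called genes of each far above it.

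The calls ran in both directions inside complexes I, III and IV and inside ATP synthase, as the plot by complex shows. In complex I 2 of 34 subunits were higher and 7 lower. In complex II 1 of 3 was higher. In complex III 1 of 8 was higher and 1 lower. In complex IV 2 of 10 were higher and 5 lower, with a median of -0.49. In ATP synthase 2 of 16 were higher and 5 lower, with a median of -0.32. None of the 6 tissue forms of complex IV was called, nor was ATP5IF1 or COX7A2L, and of the NDUFAF genes 1 of 7 was lower. The remaining call was ATP5MGL.

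In complex I the largest difference was that of NDUFA3, an accessory subunit. It lay at 6.58, 6.87 and 6.65 in the siRNA 2, siRNA 3 and control arrays of A673, and at 7.63, 8.04 and 7.89 in those of SK-N-MC. All 3 values of A673 were below all 3 of SK-N-MC, a 2.23-fold lower level in A673 (-1.16, SE 0.14, adjusted p 0.000611 by limma). NDUFS6, an accessory subunit that binds zinc, lay at 7.02, 6.96 and 7.07 in A673 and at 7.86, 7.97 and 7.98 in SK-N-MC, in the same order of arrays. The lines did not overlap and the spread within a line was small (-0.92, SE 0.10, adjusted p 0.000348). NDUFA2, another accessory subunit, lay at 5.23, 5.26 and 5.04 in A673 and at 5.93, 6.02 and 6.03 in SK-N-MC. It too was lower in each array of A673 (-0.82, SE 0.11, adjusted p 0.000937).

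Complex I also held genes that were higher in A673. NDUFS3, a core subunit of the matrix arm, lay at 8.86, 8.82 and 8.68 in the siRNA 2, siRNA 3 and control arrays of A673, and at 8.08, 8.06 and 8.12 in those of SK-N-MC. The lines did not overlap (0.70, SE 0.11, adjusted p 0.0017). NDUFA6, an accessory subunit of the LYR family, lay at 7.05, 7.16 and 7.22 in A673 and at 6.81, 6.73 and 6.79 in SK-N-MC (0.37, SE 0.10, adjusted p 0.0334). The call of NDUFA6 was lost under a second quantile normalization. Lower by less than 0.5 were the core subunit NDUFV2 and the accessory subunits NDUFB11, NDUFB10 and NDUFA13. Of the others often used to follow complex I, NDUFS1 differed by 0.30, NDUFV1 by 0.22 and NDUFB8 by 0.21, with adjusted p-values of 0.0641, 0.234 and 0.252. The 6 core subunits encoded in the nucleus had a median of 0.11, with 1 higher and 1 lower, and the 28 accessory subunits a median of -0.19, with 1 higher and 6 lower. This split was made with the values known and was not tested.

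In complex II SDHD had the largest difference of all 90 genes. It lay at 8.46, 8.09 and 8.46 in the siRNA 2, siRNA 3 and control arrays of A673, and at 7.23, 6.57 and 7.03 in those of SK-N-MC. The lowest array of A673 was above the highest of SK-N-MC, a 2.62-fold higher level in A673 (1.39, SE 0.18, adjusted p 0.000832 by limma). A second, dimmer probe set of SDHD differed by 0.58, in the same direction and by less. The other measured subunits differed by -0.28 for SDHA and 0.25 for SDHC, with no overlap between the lines but adjusted p-values of 0.0955 and 0.171. A second, dimmer probe set of SDHC differed by 0.08, and there the lines overlapped.

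In complex III CYC1, the cytochrome c1 gene, lay at 8.80, 8.58 and 8.68 in the siRNA 2, siRNA 3 and control arrays of A673, and at 7.44, 7.32 and 7.58 in those of SK-N-MC. The lines were more than 1 apart in every pairing of arrays under the same treatment, and the level was 2.36-fold higher in A673 (1.24, SE 0.12, adjusted p 0.00014 by limma, the smallest among the 90 genes). UQCRC1, a core protein of the matrix side, went the other way, at 5.99, 5.76 and 5.89 in A673 and 6.51, 6.43 and 6.73 in SK-N-MC (-0.68, SE 0.12, adjusted p 0.0036). Its partner UQCRC2 differed by 0.25 (SE 0.15, adjusted p 0.314). The other 5 genes of complex III lay between -0.31 and -0.11, and none was called.

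**Figure D3:**
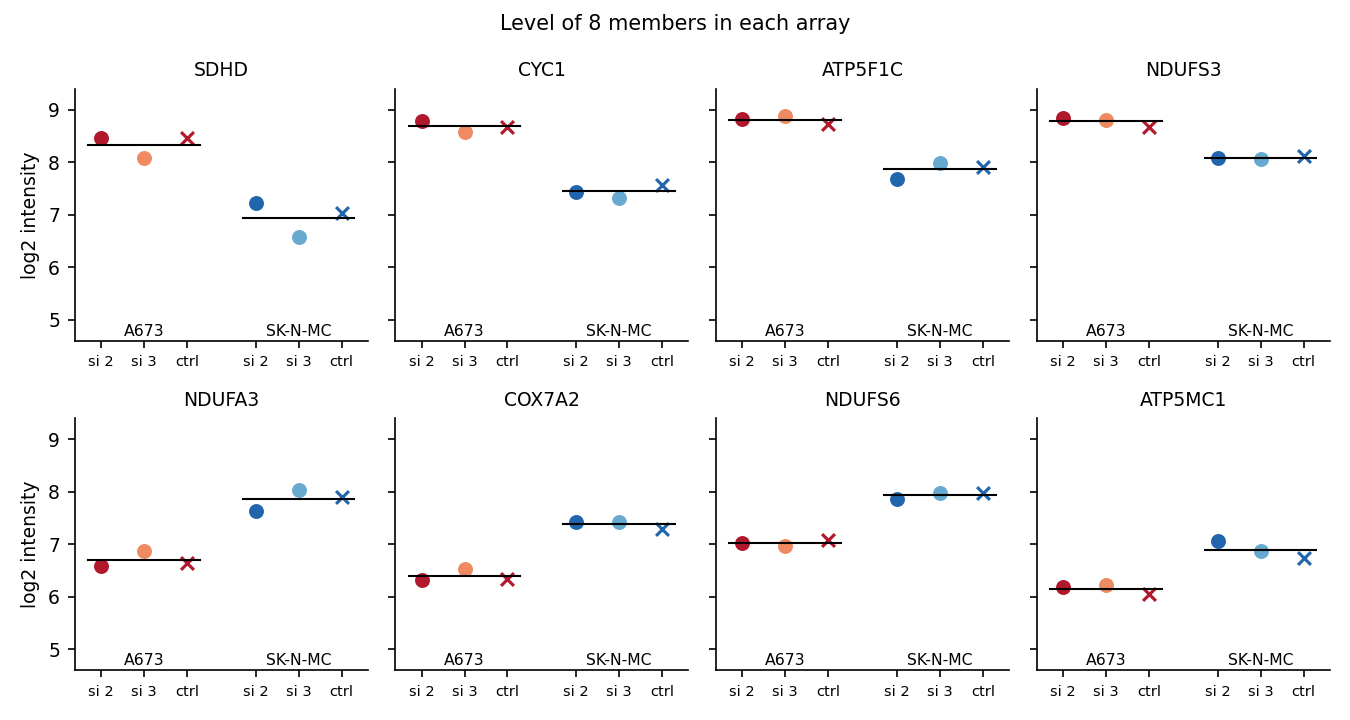
Log2 intensity of 8 genes in each of the 6 arrays, A673 in red on the left and SK-N-MC in blue on the right of each panel. Circles are siRNA 2 and siRNA 3, crosses are control arrays and lines are means of 3 arrays. In all 8 panels the lines do not overlap, with A673 above in the upper row and below in the lower row.

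In complex IV COX7A2, the form of subunit VIIa found in most tissues, lay at 6.32, 6.52 and 6.33 in the siRNA 2, siRNA 3 and control arrays of A673, and at 7.43, 7.43 and 7.29 in those of SK-N-MC. No value of A673 reached the lowest of SK-N-MC, and the level was 1.99-fold lower in A673 (-0.99, SE 0.11, adjusted p 0.000301 by limma). COX6B1, a subunit on the intermembrane side, lay at 6.61, 6.58 and 6.76 in A673 and at 7.48, 7.52 and 7.34 in SK-N-MC (-0.80, SE 0.11, adjusted p 0.0012). COX7B lay at 4.79, 5.47 and 5.12 in A673 and at 5.71, 6.13 and 5.83 in SK-N-MC (-0.76, SE 0.19, adjusted p 0.0192). Its siRNA 2 and siRNA 3 arrays stood apart within each line, and its call was lost when 1 of several arrays was left out. COX6A1 lay at 7.99, 8.23 and 7.90 in A673 and at 8.52, 8.65 and 8.66 in SK-N-MC (-0.57, SE 0.12, adjusted p 0.0096), and its second probe set differed by -0.54. COX7C was also called lower, at -0.56. COX5A, at -0.40, had an adjusted p of 0.05 at the threshold and was not called.

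COX8A and COX4I1 were the complex IV subunits higher in A673. COX8A lay at 7.19, 7.24 and 7.20 in the siRNA 2, siRNA 3 and control arrays of A673, and at 6.60, 6.38 and 6.62 in those of SK-N-MC (0.68, SE 0.11, adjusted p 0.0027). COX4I1, the usual form of subunit IV, lay at 5.57, 5.34 and 5.49 in A673 and at 4.98, 4.92 and 4.75 in SK-N-MC (0.59, SE 0.12, adjusted p 0.0068). Neither gene overlapped between the lines. The alternative form COX4I2 was dim, at 1.95, 1.94 and 1.88 in A673 and 2.42, 2.19 and 1.88 in SK-N-MC, and was not called (-0.24, adjusted p 0.225). The muscle forms COX6A2 (0.15) and COX7A1 (-0.29) were not called either.

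In ATP synthase ATP5F1C, the gamma subunit of the central stalk, lay at 8.82, 8.89 and 8.74 in the siRNA 2, siRNA 3 and control arrays of A673, and at 7.69, 8.0 and 7.92 in those of SK-N-MC. All values of A673 were above all of SK-N-MC, a 1.93-fold higher level (0.95, SE 0.12, adjusted p 0.000737 by limma). ATP5MG, subunit g of the membrane part, lay at 8.65, 8.60 and 8.68 in A673 and at 7.74, 7.91 and 7.68 in SK-N-MC (0.87, SE 0.11, adjusted p 0.000682). Its relative ATP5MGL was called as well (0.45, SE 0.12, adjusted p 0.0287) at levels under 2.4 in every array. Probes for such close copies may read both genes, so the value of ATP5MGL is uncertain.

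Lower in A673 were ATP5MC1, ATP5MJ and ATP5MF, all of the membrane part. ATP5MC1, a gene of the c ring that turns with proton flow, lay at 6.19, 6.22 and 6.05 in the siRNA 2, siRNA 3 and control arrays of A673, and at 7.06, 6.86 and 6.73 in those of SK-N-MC (-0.74, SE 0.11, adjusted p 0.0014). The other genes for the same mature c protein, ATP5MC2 (-0.10) and the dim ATP5MC3 (-0.34), were not called. ATP5MJ, a small proteolipid, lay at 6.03, 6.11 and 5.97 in A673 and at 6.76, 6.76 and 6.69 in SK-N-MC (-0.70, SE 0.10, adjusted p 0.0013). ATP5MF lay at 6.67, 6.64 and 6.84 in A673 and at 7.09, 7.46 and 7.57 in SK-N-MC (-0.66, SE 0.12, adjusted p 0.0055). None of these 3 genes overlapped between the lines. ATP5MK (-0.47) and ATP5ME (-0.41), also of the membrane part, were called lower by less. The subunits ATP5F1A (-0.03) and ATP5F1B (0.15) were not called, nor was the inhibitor ATP5IF1 (-0.16), and the small value of ATP5F1A changed its sign when an array was left out.

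Among the assembly factors in the set, NDUFAF6 was called lower in A673, where it lay at 2.83, 2.41 and 2.77 in the siRNA 2, siRNA 3 and control arrays, against 3.45, 3.40 and 3.39 in SK-N-MC (-0.74, SE 0.13, adjusted p 0.0042). The lines did not overlap, and all 6 levels were low. The other 6 NDUFAF genes differed by -0.46 to 0.36 and were not called.

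**Figure D4:**
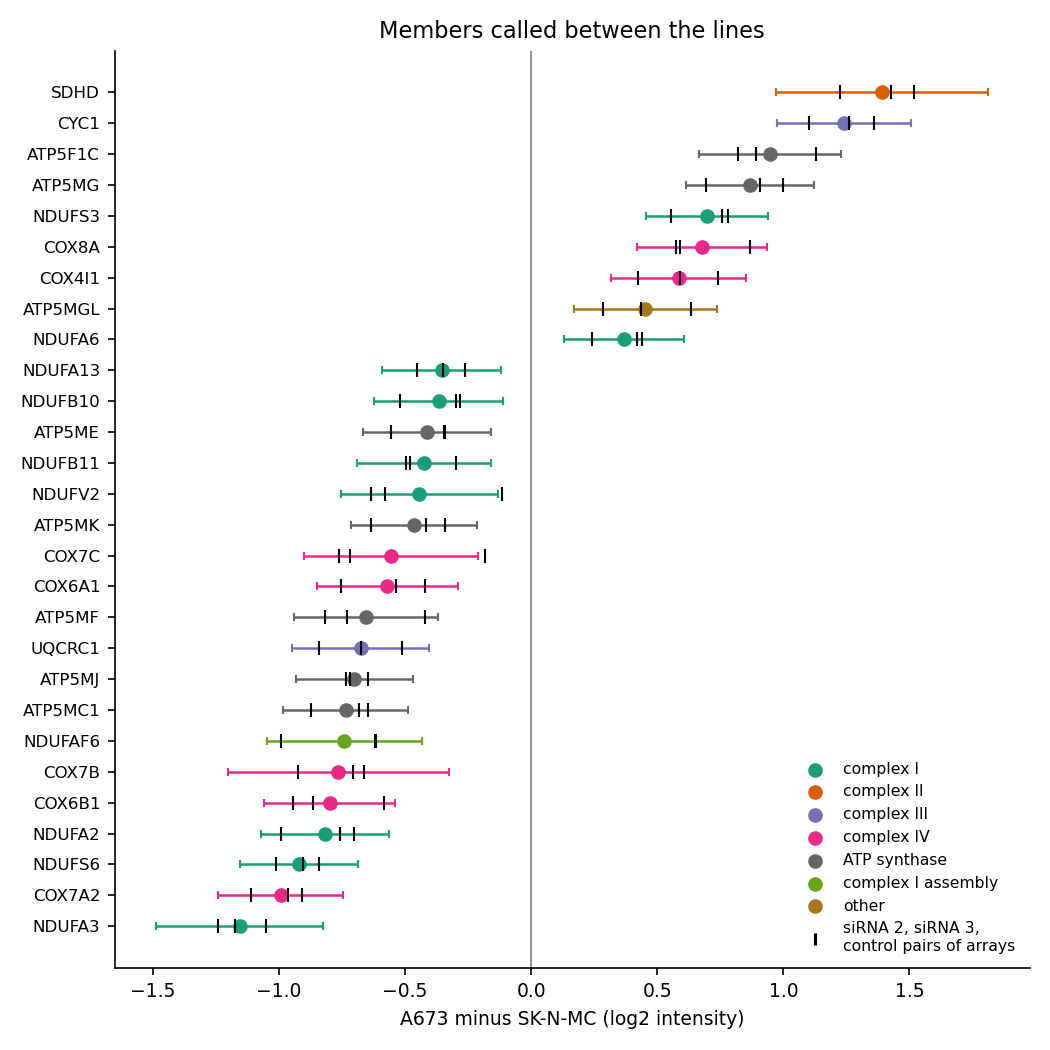
The 28 called genes with the difference between A673 and SK-N-MC in log2 intensity and its 95% interval, coloured by complex. Black ticks are the differences between the arrays of the same treatment in each line (siRNA 2, siRNA 3 and control). SDHD and CYC1 lie at the top and NDUFA3 at the bottom, and all 3 ticks of each gene lie on the same side of 0.

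The 28 calls were recomputed under the other settings tried, and 16 held under every one that tested them. Higher in A673 in all of them were SDHD, CYC1, ATP5F1C, ATP5MG, NDUFS3 and COX8A. Lower in all of them were NDUFA3, COX7A2, NDUFS6, NDUFA2, COX6B1, NDUFAF6, ATP5MC1, ATP5MJ, UQCRC1 and ATP5MF. None of the 28 changed its direction. In the fits without the A673 control array or without the SK-N-MC control array, 7 higher and 11 lower calls were made among the 90 genes, with fewer arrays in the fit. Both fits necessarily give the same result, because the control array left in is fitted exactly by the silencing term. The line difference then rests on the 4 siSTEAP1 arrays alone. The calls lost there were COX4I1, ATP5MGL, NDUFA6, COX7B, COX6A1, COX7C, ATP5MK, NDUFB11, ATP5ME, NDUFB10 and NDUFA13. Without any 1 of the siSTEAP1 arrays 4 to 9 calls were lost, and the calls of NDUFV2, NDUFB10 and NDUFA13 were among those lost each time.

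The stretches upstream of the start of some of these genes are shown because these genes had the 3 largest called differences in each direction, CYC1 aside. Each is the 120 bases before the start in RefSeq, assembly GRCh38.p14, written 5′ to 3′ on the strand of the gene. Capitals mark the letters GCGCATGC (known for NRF1, a regulator of nuclear genes of the chain), CCGGAAG (known for ETS factors, which include GABPA and FLI1) and AAGATGGC (known for YY1), on either strand. The stretches of SDHD (chr11:112086753-112086872), ATP5F1C (chr10:7788057-7788176) and ATP5MG (chr11:118401486-118401605) belong to genes higher in A673. Those of NDUFA3 (chr19:54102735-54102854), COX7A2 (chr6:75250299-75250418 on the minus strand) and NDUFS6 (chr5:1801287-1801406) belong to genes lower in A673.
SDHD: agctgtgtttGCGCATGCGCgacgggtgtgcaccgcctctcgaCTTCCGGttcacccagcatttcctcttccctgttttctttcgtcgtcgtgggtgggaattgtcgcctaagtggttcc
ATP5F1C: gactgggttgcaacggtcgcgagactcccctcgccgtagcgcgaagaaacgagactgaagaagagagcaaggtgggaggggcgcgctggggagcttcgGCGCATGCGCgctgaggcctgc
ATP5MG: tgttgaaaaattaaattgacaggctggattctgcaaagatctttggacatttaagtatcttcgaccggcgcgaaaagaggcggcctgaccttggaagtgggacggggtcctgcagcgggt
NDUFA3: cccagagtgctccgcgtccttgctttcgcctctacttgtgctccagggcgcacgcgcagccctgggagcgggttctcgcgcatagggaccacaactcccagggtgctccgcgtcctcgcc
COX7A2: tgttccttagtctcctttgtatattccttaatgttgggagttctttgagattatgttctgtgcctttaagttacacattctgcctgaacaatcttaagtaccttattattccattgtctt
NDUFS6: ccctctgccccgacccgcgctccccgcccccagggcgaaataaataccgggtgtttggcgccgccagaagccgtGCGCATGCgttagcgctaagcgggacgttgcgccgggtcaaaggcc
SDHD holds the NRF1 letters, on both strands with an overlap, and the ETS letters. ATP5F1C also holds the NRF1 letters on both strands with an overlap, and NDUFS6 holds them on 1 strand. In the other 3 stretches none of these letters was found, which says nothing about the factors. Outside the printed bases but within the 300 bases searched next, the promoter of ATP5MG holds the ETS letters and that of NDUFA3 the YY1 letters.

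A promoter of 300 bases, from 250 before to 50 after the start, was found for 74 of the 90 genes. The NRF1 letters stood in 14 of these 74 promoters, or 18.9%, beside 3.27% of all 27305 promoters of the table. The ETS letters stood in 20, or 27%, beside 10.7%, and the YY1 letters in 10, or 13.5%, beside 3.03%. The SP1 box GGGCGG stood in 41, or 55.4%, beside 44.6%. Of the genes higher in A673 that had a promoter, 5 of 7 held the ETS letters and 3 of 7 the NRF1 letters. Of those lower in A673, 5 of 17 held the ETS letters and 3 of 17 the NRF1 letters. These matches are descriptions of letters, not of binding, and base composition was not matched.

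The place of the genes in the genome was not part of the rule, and the calls were unevenly spread over it. Chromosome 11 held 7 of the 90 genes, and 4 of them were called higher in A673: SDHD, ATP5MG, NDUFS3 and COX8A. The other 3, NDUFV1, NDUFS8 and NDUFV1-DT, were not called. Genes of chromosome 11 stood higher in A673 in general: of its 479 genes that averaged at least 4 on the log2 scale, 50.9% were called higher and 3.55% lower, with a median of 0.43. Chromosome 6, with COX7A2 and NDUFAF4, went the other way, with 49.1% of 403 such genes called lower and a median of -0.43. Elsewhere 41.3% of such genes were called higher on chromosome 8 (CYC1 higher, NDUFAF6 lower) and 40.1% on chromosome 16 (COX4I1 higher, NDUFB10 lower). The share called higher was 34.0% on chromosome 4 (ATP5ME lower) and 32.1% on chromosome 10 (ATP5F1C higher, ATP5MK lower). On chromosome 3 (UQCRC1 lower) 32.3% were called lower. Chromosome 19 held 11 of the 90 genes, all lower in A673 and 3 of them called (NDUFA3, COX6B1 and NDUFA13), while 16.2% of its 511 such genes were called lower, with a median of -0.01. Chromosome 5 held 7, all lower and 3 of them called (NDUFS6, NDUFA2 and COX7C), beside a median of -0.16 and 29.8% called lower among its 332 such genes. The number of copies of these chromosomes in the lines was not measured, and its part in the differences was not tested.

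**Figure D5:**
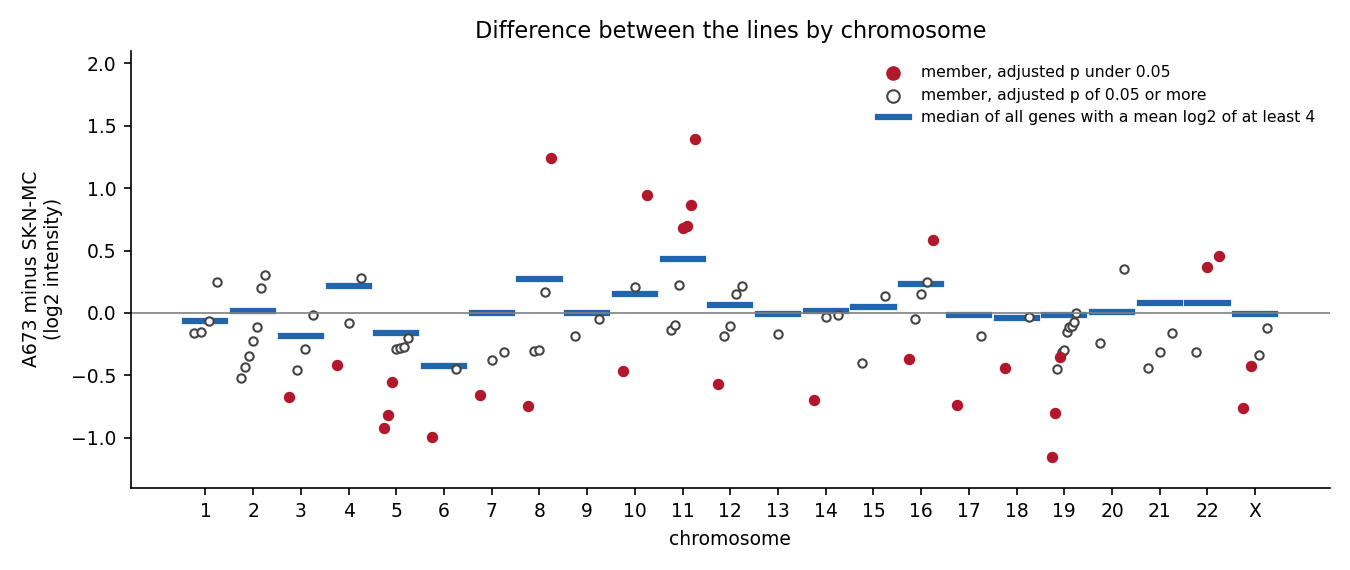
Difference between A673 and SK-N-MC in log2 intensity for the 90 genes by chromosome. Points are genes, filled red where limma's adjusted p was under 0.05, and blue bars are the medians of all genes of the chromosome averaging 4 or more. The 4 red points of chromosome 11 lie above a bar that is itself at 0.43, while on chromosome 19 all points lie below 0.

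Genes that work around the chain were counted from lists chosen with earlier results of these data known. Their counts stand beside the 13.5% of all genes called higher and 11.4% called lower. Among genes averaging a log2 level of 4 or more these shares were 22.5% and 16.4%. Of 47 assembly factors measured, 11, or 23.4%, were higher in A673 and 5, or 10.6%, lower. FOXRED1, a complex I assembly factor, lay at 5.99, 6.02 and 6.13 in the siRNA 2, siRNA 3 and control arrays of A673, and at 3.56, 3.51 and 3.91 in those of SK-N-MC. It stood far above SK-N-MC in each array (2.39, SE 0.11, adjusted p 3.62e-06 by limma). CMC2 (1.16) and COX10 (0.94), which act in the making of complex IV, were also higher, and HIGD2A (-1.21), COA3 (-1.03) and the ATP synthase factor TMEM70 (-1.10) were lower. Of 21 genes of ubiquinone, cytochrome c and the enzymes that feed electrons into the chain, 6, or 28.6%, were higher and 2, or 9.52%, lower. COQ9 stood at 0.81, GPD2 at 0.76 and COQ8A at -0.60. Of 20 regulators of mitochondrial biogenesis and genome upkeep, 1, or 5%, was higher (GABPB1, 0.84). Another 3, or 15%, were lower (TEFM, -0.74, SSBP1, -0.47, and TWNK, -0.39).

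After silencing of STEAP1, 0 genes of these 3 lists were called by limma across the lines, and 2 assembly factors, 1 gene of the electron carriers and 0 regulators had an unadjusted p under 0.05. TMEM70 lay at 4.81 with siRNA 2, 4.83 with siRNA 3 and 4.13 with control siRNA in A673 and at 5.78 with siRNA 2, 5.95 with siRNA 3 and 5.33 with control siRNA in SK-N-MC. All 4 siSTEAP1 arrays were above their controls (0.61, SE 0.11, adjusted p 0.989). The same was so of SURF1, a complex IV assembly factor (0.51, SE 0.13, adjusted p 0.989). GPD2, which passes electrons from glycerol phosphate to ubiquinone, lay below its controls in all 4 arrays (-0.44, SE 0.11, adjusted p 0.989).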

How the data were processed

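RNA was measured on 6 arrays. The authors deposited linear intensities per probe set. The submitters' processing notes name RMA and Affymetrix Expression Console 1.1, and no source used here says how RMA's log values became linear. Log2 of each deposited intensity was taken, with no further normalization. Of 33297 probe sets, 19460 carry 1 gene symbol, updated by gene identifier through RefSeq (GRCh38.p14, 19429 matched). The brightest probe set stood for a gene, which gave 18417 genes and 98 probe sets for the 90 genes described.

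Limma 3.58.1 in R 4.3.3 (lmFit, eBayes, two-sided) was fitted to all genes, and p-values were adjusted over all of them. Silencing across lines and A673 minus SK-N-MC came from terms for line and silencing (3 residual degrees of freedom), responses within lines and their difference from 4 group means (2), and siRNA 2 minus siRNA 3 from terms for line and each siRNA (2). The fits were tested on simulated data. Both siRNAs stood as replicates of silencing.

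The members and lists were chosen with earlier results of these data known. Called genes are named, at most 12 in each direction. Where none is called, the 3 with the largest smallest change among arrays of 1 sign are named in each direction. Subunits often used as markers, and up to 5 called genes in each direction of every other list, are named too. Promoters are RefSeq's (GRCh38.p14).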

Additional observations from a re-analysis of the deposited data

How the results depend on the processing

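The comparisons were repeated with each array centred on its median, a second quantile normalization, limits on the mean log2 of 4 and 6, an offset of 16 before log2, all probe sets of a gene averaged, a trended robust prior, structural subunits alone, the annotation's own symbols, and each array left out. After silencing, between siRNAs and for the difference of responses, limma called 0 of the genes under every one. The structural subunits are part of the 90 genes, and the annotation's own symbols gave the same 90. Those 2 settings could therefore not have added a call. The second quantile normalization moved the median within SK-N-MC to 0.0548 and that of the difference of responses to -0.0757. With 1 array left out, the median of the difference of responses lay between 0.0277 and 0.0695, and that within A673 between -0.0110 and 0.0268. No response could be fitted in a line without its control array. NDUFAF2 across the lines turned to -0.0246 with its probe sets averaged. Between the lines, the calls lower in A673 were 34 after the second quantile normalization and 11 to 21 when 1 array was left out, and the median was -0.24 after that normalization and -0.11 with the offset. The sign of ATP5F1A turned, to 0.0158 with the 4 siSTEAP1 arrays alone or without either control array, and its values ran from -0.0993 to 0.0158 with 1 array left out (0.0012 without the A673 siRNA 2 array). With the siRNA number as a replicate block, 9 genes were higher and 22 lower, and no call was lost. The numbers mark the same siRNA, and with 2 pairs at a correlation of 0.07 over all genes and 0.19 over those with a mean log2 of at least 4 they were not taken to pair the arrays. Causes were not tested. Dim probe sets and 1 control array a line limit what could be seen.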

Other observations

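Genes next to the chain also differed between the lines. Of 17 measured genes of the citric acid cycle and pyruvate dehydrogenase, limma called 4 higher in A673 and 4 lower, or 23.5% each way. Over all genes 13.5% were called higher and 11.4% lower. Among genes averaging a log2 level of 4 or more these shares were 22.5% and 16.4%. DLAT, the acetyltransferase of pyruvate dehydrogenase, lay at 7.60, 7.55 and 7.53 in the siRNA 2, siRNA 3 and control arrays of A673, and at 6.32, 6.0 and 6.42 in those of SK-N-MC (1.32, SE 0.13, adjusted p 0.000177). PDHX of the same enzyme was higher as well (0.98), while PDHB (-0.82), SUCLA2 (-0.72) and IDH2 (-0.56) were lower. DLAT, PDHX and FOXRED1 lie on chromosome 11, whose genes stood higher in A673 in general. After silencing of STEAP1 limma called 0 of these 17 genes across the lines, and 0 had an unadjusted p under 0.05.

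COXFA4, a complex IV subunit once named NDUFA4, is left out by the rule because of its current symbol. It lay at 6.89, 6.69 and 6.85 in the siRNA 2, siRNA 3 and control arrays of A673, and at 7.18, 7.40 and 7.37 in those of SK-N-MC, with no overlap (-0.51, SE 0.12, adjusted p 0.013 by limma). Its relative COXFA4L2, known for induction by low oxygen, was dim, at 2.35, 2.45 and 2.40 in A673 and 2.65, 2.35 and 2.28 in SK-N-MC. With these genes and COXFA4L3 added, a choice made after seeing the data, 9 genes were called higher and 20 lower between the lines.

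Both probe sets of NDUFB4 held identical values in all 6 arrays, and the gene was counted as 1.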
